A study of Mus musculus with 10 samples.

Results

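Protein arginine methyltransferases transfer methyl groups from S-adenosylmethionine to arginine side chains of histones and of many RNA-binding proteins. Type I enzymes make asymmetric dimethylarginine, type II enzymes make symmetric dimethylarginine and the type III enzyme stops at monomethylarginine. In mice, loss of Prmt1 or of Prmt5 is lethal early in development, and Carm1 has been studied in cleavage-stage embryos for its effect on the fate of blastomeres. The 8 genes described here are Prmt1, Prmt2, Prmt3, Carm1 and Prmt6, of type I, Prmt7, of type III, Prmt5, of type II, and Wdr77, whose product is the obligate partner of the Prmt5 protein. They are 8 of the 35976 genes in the count table, and all 8 passed the filter on low counts in each set of libraries. They were chosen by gene name, with an earlier result of these data in view: Prmt1 lay among the most increased genes of single knockout embryos. For that reason the members' values from single embryos are a description: no p-value is given for them, and they support nothing.

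The libraries hold polyadenylated RNA of preimplantation mouse embryos at the morula stage, from the strain combination BDF1 x PWK. The groups were 3 Jarid2 knockout single female embryos (replicates 1, 3 and 4), 3 wild-type single female embryos (replicates 1 to 3), 2 pools of Jarid2 knockout embryos and 2 pools of control embryos, at about 20 embryos a pool. The sex of the pooled embryos, the deletion used and the promoter of any Cre are not stated in the labels. Jarid2 encodes a cofactor of the Polycomb complex PRC2. The question the design poses is what changes in the RNA of morulae without it.

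Total counts were 18015186 to 18696312 in knockout single embryos, 14830332 to 17534188 in wild-type single embryos, 41003216 to 49861963 in knockout pools and 42906533 to 47458704 in control pools. Levels are in CPM: the count of a gene over the total of its library, on a scale where all libraries have the same sum. Jarid2 itself had 156.2, 318.7 and 61.3 CPM in knockout single embryos 1, 3 and 4, against 580.3, 686.0 and 775.6 CPM in the wild types, and 180.6 and 157.9 CPM in knockout pools, against 442.5 and 496.3 CPM in control pools. The 12 genes chosen to mark early embryos summed to 3508 to 4340 CPM in knockout single embryos, 3070 to 3562 CPM in wild-type single embryos, 3657 to 3829 CPM in knockout pools and 3808 to 3996 CPM in control pools. Dppa3 made up most of each sum, at 2130 to 2955 CPM in knockout and 1850 to 2165 CPM in wild-type single embryos. In the pools Dppa3 had 2361 to 2815 CPM in knockouts and 2561 to 2896 CPM in controls. Cumulus and granulosa markers summed to at most 0.877 CPM in any library, and 7 of those 10 genes had 0 counts throughout the knockout single embryos, the wild-type single embryos and the knockout pools, and 6 did in control pools. Oocyte and polar body markers summed to 37.9 to 103.6 CPM in knockout and 48.4 to 163.9 CPM in wild-type single embryos, and to 66.7 to 76.8 CPM in knockout and 63.7 to 75.5 CPM in control pools. Most of each sum was 1 gene, Zp3, at 35.6 to 97.2 CPM in knockout and 45.95 to 160.95 CPM in wild-type single embryos. In the pools Zp3 had 57.5 to 69.2 CPM in knockouts and 59.2 to 72.4 CPM in controls. Sperm markers summed to at most 7.11 CPM in any library. The part of oocyte RNA in the results below was not tested.

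The genes lie on separate chromosomes or far apart. In RefSeq's annotation of GRCm38.p6 (mm10), Prmt1 (gene 15469) lies on chromosome 7 from 44976755 to 44986420 and Prmt3 (gene 71974) on the same chromosome from 49778319 to 49861264. Prmt5 (gene 27374) lies on chromosome 14 from 54507182 to 54517470, and Wdr77 (gene 70465) on chromosome 3 from 105959498 to 105969760. Prmt6 (gene 99890) is on chromosome 3 from 110246104 to 110250999, Prmt7 (gene 214572) on chromosome 8 from 106211054 to 106251694, and Prmt2 (gene 15468) on chromosome 10 from 76207226 to 76237865. Carm1 (gene 59035) lies on chromosome 9 from 21546894 to 21589467 and overlaps Yipf2 by 786 bases, so its counts are uncertain where strand was not used. The other members overlap no gene of the table, except that Prmt2 contains the microRNA gene Mir678.

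The promoters of Prmt1, Prmt5 and Wdr77 are shown because these are the 3 members whose knockout and wild-type single embryos did not overlap. Each is the window of 300 bases around the start of the gene in RefSeq's table for GRCm38.p6, 5′ to 3′ on the strand of the gene, at chr7:44986371-44986670 (minus strand), chr14:54517421-54517720 (minus strand) and chr3:105959248-105959547 (plus strand). Capitals mark the E-box letters CACGTG, the same on each strand, and CCAAT, read on either strand.
Prmt1: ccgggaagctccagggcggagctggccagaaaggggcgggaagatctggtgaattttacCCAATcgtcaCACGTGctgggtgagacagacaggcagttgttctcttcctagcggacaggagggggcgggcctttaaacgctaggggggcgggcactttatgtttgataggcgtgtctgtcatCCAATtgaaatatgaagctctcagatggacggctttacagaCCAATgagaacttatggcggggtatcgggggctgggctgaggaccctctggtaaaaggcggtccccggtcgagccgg
Prmt5: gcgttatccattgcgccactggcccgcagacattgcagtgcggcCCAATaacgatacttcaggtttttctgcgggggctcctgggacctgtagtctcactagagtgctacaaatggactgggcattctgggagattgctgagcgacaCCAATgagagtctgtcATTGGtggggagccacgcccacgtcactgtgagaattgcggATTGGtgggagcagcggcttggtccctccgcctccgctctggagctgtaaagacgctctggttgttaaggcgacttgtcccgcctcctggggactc
Wdr77: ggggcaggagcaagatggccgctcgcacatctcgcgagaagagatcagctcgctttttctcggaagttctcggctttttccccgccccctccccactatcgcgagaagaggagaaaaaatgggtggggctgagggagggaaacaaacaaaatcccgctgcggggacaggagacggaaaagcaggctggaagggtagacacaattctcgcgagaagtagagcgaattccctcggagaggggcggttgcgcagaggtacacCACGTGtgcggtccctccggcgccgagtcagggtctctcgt
CACGTG occurred once in the Prmt1 window and once in the Wdr77 window, and not in that of Prmt5. CCAAT occurred 3 times in the Prmt1 window and 4 times in that of Prmt5, and not in that of Wdr77, and no match of one motif overlapped a match of the other. Over all 32851 promoter windows of the table, 7.15% held CACGTG at least once and 37.41% held CCAAT at least once. CCAAT occurred 2 or more times in 11.7% of them. Among the other members with a window, CACGTG was found once in Prmt3 and CCAAT once each in Prmt2 and Prmt3, while Prmt6 and Prmt7 held neither. The motifs were picked after the sequences had been seen, and a match is no evidence of binding.

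By group means of CPM per kilobase of exon, Prmt5 was the most abundant of the 8 transcripts in each group and Prmt2 the least. Exon lengths came from the GENCODE basic annotation (release M21). In knockout single embryo 1, however, Prmt1 lay above Prmt5, at 104.1 against 70.75 CPM per kilobase. Over the 10 libraries Prmt5 had a median level of 59.9 CPM per kilobase (49.5 to 73.2) and Wdr77 41.1 (27.8 to 57.3). Prmt7 followed with a median level of 23.7 CPM per kilobase (15.8 to 44.3), Prmt3 with 20.1 (15.9 to 32.1) and Prmt1 with 19.9 (7.14 to 104.1). The ranges of these 3 genes overlap throughout, and Prmt1 passes Prmt3 when the longest coding transcript gives the length (21.1 against 20.1). Prmt6 had 5.38 CPM per kilobase (3.71 to 9.04), Carm1 2.98 (1.38 to 6.03) and Prmt2 1.57 (0.00 to 3.16), and each overlaps the next in this order. Levels of different genes also depend on which exons the authors counted, and the labels do not say.

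The genes differed widely in how far their levels spread over libraries. Prmt1 spread the most among the members with counts in every library, with its highest CPM 14.6 times its lowest. The same ratio was 4.37 for Carm1, 2.81 for Prmt7, 2.43 for Prmt6, 2.06 for Wdr77 and 2.01 for Prmt3. For Prmt5 it was 1.48, the smallest of these. The extremes of Prmt1 were knockout single embryo 1 (237.1 CPM) and wild-type single embryo 1 (16.3 CPM). Its ratio thus includes the difference between genotypes that was in view when the genes were chosen. Within the pools Prmt1 ran from 34.6 to 60.8 CPM and Carm1 from 4.70 to 10.3 CPM. Prmt2 had 0 counts in wild-type single embryo 3, which allows up to 0.173 CPM there by counting error alone.

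**Figure D1:**
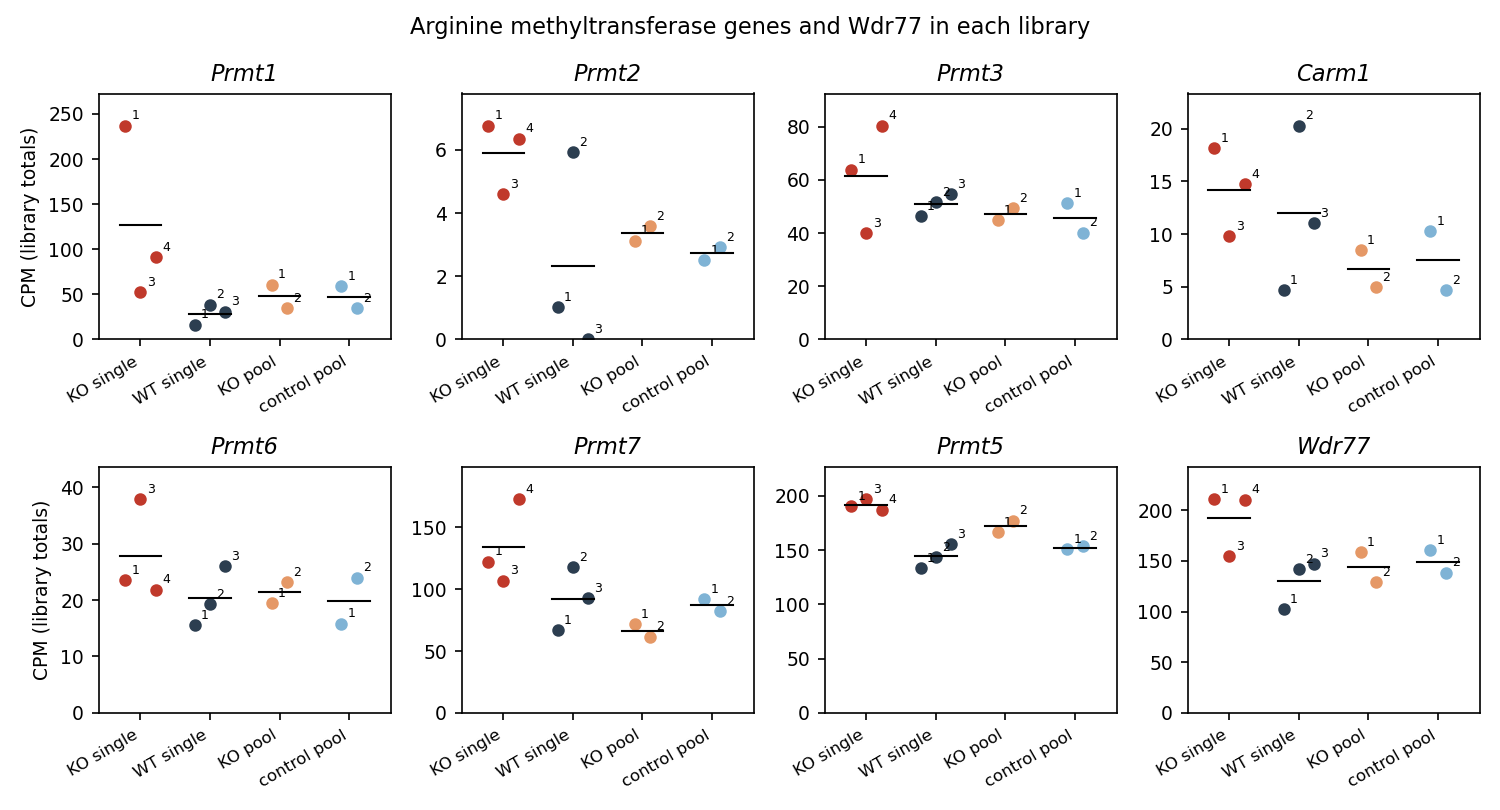
CPM of each member (vertical axis, from 0, scaled per panel) in each library, grouped as knockout and wild-type single embryos and knockout and control pools. Points carry the replicate number and bars are group means. Prmt1 spans 52.0 to 237.1 CPM in knockout and 16.3 to 38.6 CPM in wild-type single embryos, with the pools of both genotypes between 34.6 and 60.8 CPM.

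Prmt1 encodes the enzyme that makes most asymmetric dimethylarginine in mammalian cells. It had 237.1, 52.0 and 91.1 CPM in knockout single embryos 1, 3 and 4 (4271, 972 and 1647 counts), against 16.3, 38.6 and 30.8 CPM in wild-type single embryos 1, 2 and 3 (241, 677 and 535 counts). Each knockout embryo lay above each wild-type one, and knockout embryo 1 stood far above the other two. The means were 126.7 ± 97.5 CPM in knockouts and 28.5 ± 11.3 CPM in wild types (SD, n = 3 each), a log2 change of 2.24 (SE 0.54) that is 4.74-fold. In bulk libraries of whole embryos, fewer cells of a type and less RNA per cell cannot be told apart.

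The size of the Prmt1 difference depended on which embryos were compared. With 1 embryo left out, the log2 change was 1.35 without knockout 1, 2.64 without knockout 3 and 2.44 without knockout 4. It was 1.96 without wild type 1, 2.50 without wild type 2 and 2.32 without wild type 3. Knockout embryo 3, with the lowest Prmt1 of its group, had the highest Jarid2 (318.7 CPM). Knockout embryo 1, with the highest Prmt1, lay between the others in Jarid2 (156.2 CPM). A relation between Jarid2 and Prmt1 levels was not tested.

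In the pools the genotypes overlapped for Prmt1. It had 60.8 and 35.0 CPM in knockout pools 1 and 2, against 59.1 and 34.6 CPM in control pools 1 and 2. The spread between pools of a genotype was far larger than the gap between genotypes, since the means were 47.9 ± 18.2 CPM in knockouts and 46.8 ± 17.3 CPM in controls (SD, n = 2 each). The log2 change after scaling was -0.05 (SE 0.32, edgeR adjusted p = 0.994). Pool 1 of each genotype fell within the range of the knockout single embryos and pool 2 of each within that of the wild types. Single embryos and pools differ in the number of embryos, in total counts and in what the labels say of sex. Their comparison groups also differ in label, wild type for single embryos and control for pools. These differences cannot be told apart, and whether the knockout effect differs between the sets was not tested.

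The other type I genes were less abundant or less divergent. Prmt3 encodes a cytosolic enzyme whose best-known substrate is the ribosomal protein Rps2. It had 63.9, 40.0 and 80.5 CPM in knockout single embryos, against 46.4, 51.6 and 54.8 CPM in wild types, and 44.8 and 49.5 CPM in knockout pools, against 51.2 and 40.2 CPM in control pools. Its groups overlapped in each set (log2 0.33, SE 0.30, in single embryos, and -0.05, SE 0.19, adjusted p = 0.984 by edgeR, in pools).

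Carm1, a coactivator of transcription that methylates histone H3 and splicing factors, had 18.2, 9.79 and 14.7 CPM in knockout single embryos, against 4.65, 20.3 and 11.0 CPM in the wild-type ones. Among the pools it had 8.46 and 4.98 CPM in knockouts, against 10.3 and 4.70 CPM in controls. The groups overlapped in each set, with log2 changes of 0.32 (SE 0.53) in single embryos and -0.24 (SE 0.41, edgeR adjusted p = 0.955) in pools. In single embryos the sign turned to -0.07 without wild type 1.

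Prmt6, a nuclear enzyme that methylates histone H3, had 23.5, 37.9 and 21.9 CPM in knockout single embryos, against 15.6, 19.3 and 26.0 CPM in wild types. Its pools held 19.5 and 23.2 CPM in knockouts, against 15.9 and 24.0 CPM in controls. Here knockout embryo 3, the lowest of its group for Prmt1, was the highest, so the type I genes did not rank the embryos alike. The log2 changes were 0.47 (SE 0.34) in single embryos and 0.02 (SE 0.22, edgeR adjusted p = 0.997) in pools.

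Prmt2, an enzyme of weak activity that carries an SH3 domain, was the least abundant member. It had 122, 86 and 115 counts in knockout single embryos, against 15, 104 and 0 counts in wild types, so that wild type 2 resembled the knockouts while the others lay far lower. In the pools it had 3.13 and 3.59 CPM in knockouts, against 2.52 and 2.93 CPM in controls. The log2 changes were 1.44 (SE 1.17) in single embryos and 0.21 (SE 0.33, edgeR adjusted p = 0.947) in pools.

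**Figure D2:**
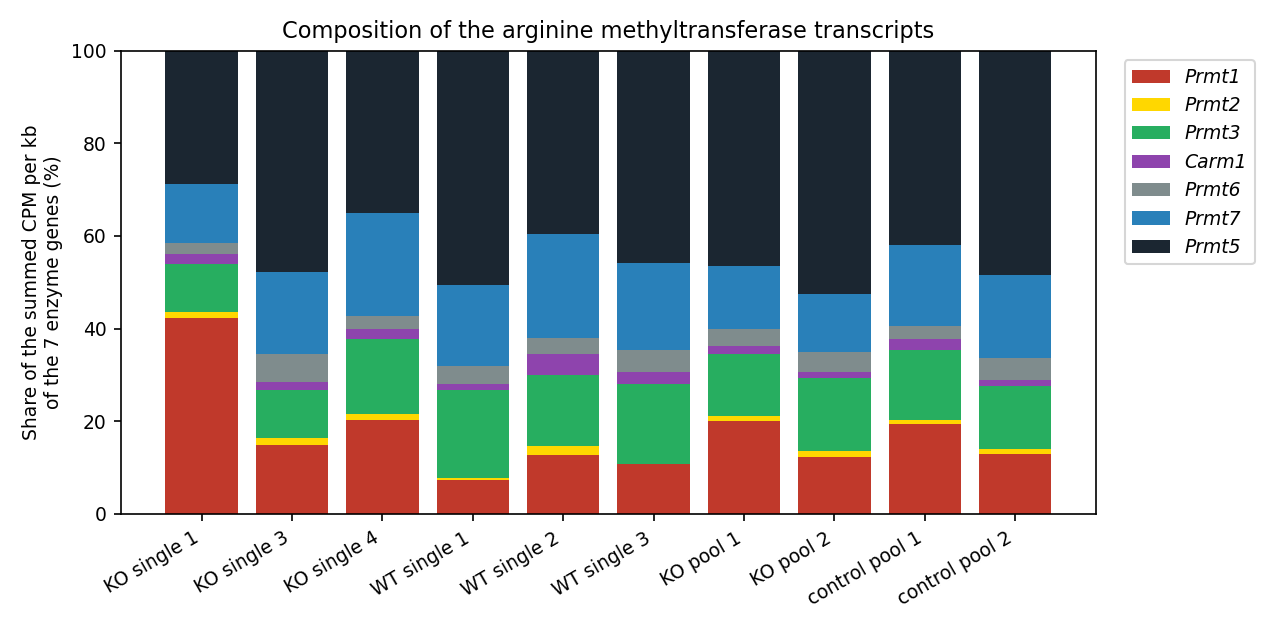
Share of each gene (percent, vertical axis) in the summed CPM per kilobase of the 7 enzyme genes, one bar per library, Wdr77 left out. Prmt5 holds 28.8% to 52.5% of every bar and Prmt1 takes 42.4% in knockout single embryo 1 against 7.3% in wild-type single embryo 1.

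By CPM per kilobase, Prmt1 made up 14.9% to 42.4% of the 7 enzyme transcripts in knockout single embryos, against 7.3% to 12.6% in wild types. In the pools its share was 12.3% to 20.0% in knockouts and 12.9% to 19.4% in controls. Among the type I genes alone, Prmt1 gave 67.9%, 36.0% and 42.5% of the summed CPM in knockout single embryos 1, 3 and 4, against 19.4%, 28.4% and 25.1% in the wild types. The summed CPM of the 5 type I genes was 349.4, 144.3 and 214.5 in those knockouts, against 83.9, 135.7 and 122.6 in the wild types. In the pools that sum was 136.6 and 116.3 CPM in knockouts, against 139.0 and 106.4 CPM in controls, so the genotypes overlapped there.

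Prmt5 is the main source of symmetric dimethylarginine, on Sm proteins of the spliceosome and on histones H2A, H3 and H4. It had the tightest groups of the family: 190.4, 197.0 and 187.4 CPM in knockout single embryos, against 133.2, 143.4 and 155.7 CPM in wild types. No knockout embryo overlapped a wild type, and the means were 191.6 ± 4.9 CPM in knockouts and 144.1 ± 11.3 CPM in wild types (SD, n = 3 each; log2 0.46, SE 0.19). In the pools Prmt5 was also above the controls in each knockout library, at 166.8 and 177.1 CPM, against 151.1 and 153.5 CPM in controls. There the log2 change after scaling was only 0.09 (SE 0.16, edgeR adjusted p = 0.961).

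Wdr77 encodes the WD-repeat protein, also called MEP50, that presents substrates to Prmt5. It had 211.0, 155.0 and 210.5 CPM in knockout single embryos, against 102.2, 142.0 and 147.3 CPM in wild types, with no overlap (log2 0.62, SE 0.24). In the pools it had 158.6 and 128.7 CPM in knockouts, against 160.3 and 138.5 CPM in controls (log2 -0.14, SE 0.20, edgeR adjusted p = 0.942). The ratio of Prmt5 to Wdr77 CPM ran from 0.89 to 1.271 in knockout and from 1.01 to 1.303 in wild-type single embryos, and from 1.05 to 1.38 in knockout and from 0.943 to 1.11 in control pools. The genotypes overlap in this ratio in each set.

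Prmt7, the type III enzyme, was the member with the smallest unadjusted p in the pools. It had 71.5 and 61.6 CPM in knockout pools, against 92.0 and 82.4 CPM in control pools, with no overlap. The means were 66.6 ± 7.1 CPM in knockouts and 87.2 ± 6.8 CPM in controls (SD, n = 2 each), a log2 change of -0.47 (SE 0.18), or 0.72-fold. The unadjusted p was 0.0274 and the adjusted p 0.697 by edgeR, so the difference did not pass. Over 13 alternatives the log2 change stayed between -0.66 and -0.31 and the adjusted p between 0.102 and 1. In single embryos Prmt7 lay the other way, with 122.2, 106.9 and 172.8 CPM in knockouts, against 66.6, 117.9 and 92.6 CPM in wild types (log2 0.59, SE 0.28), where wild type 2 overlapped the knockouts.

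**Figure D3:**
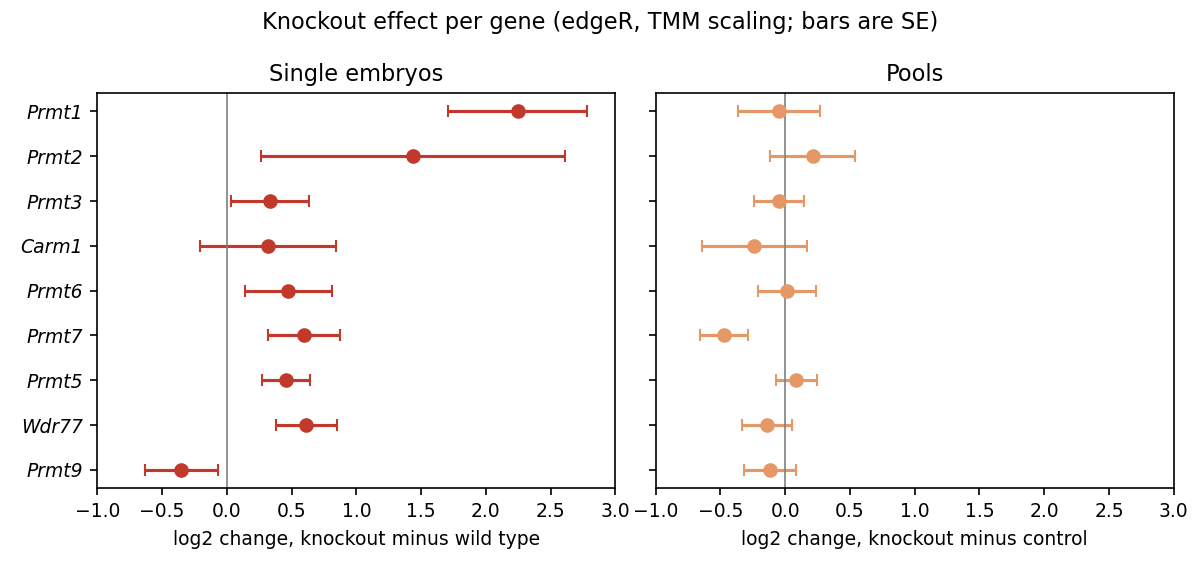
Log2 change, knockout minus wild type or control, of the 8 members and Prmt9 in single embryos (left) and pools (right), from edgeR with TMM scaling; bars are SE. In single embryos all 8 members lie above 0, with Prmt1 at 2.24, and in pools they lie between -0.47 and 0.21.

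In the pools 0 of the 8 members passed 5% by edgeR, and 1 member, Prmt7, had an unadjusted p under 0.05. Jarid2 itself did not pass in that fit (log2 -1.55, SE 0.18, edgeR adjusted p = 0.0794). The background was 0.00% of 16259 genes higher and 0.00% lower in knockouts, with 1073 genes at an unadjusted p under 0.05. DESeq2 and limma-voom called 0 members as well, although DESeq2 called 70 genes and limma-voom 1. The knockout and control pools did not overlap for 3 members, of which Prmt2 and Prmt5 were higher and Prmt7 was lower in knockouts. Over all genes the pools did not overlap in 24.3% with higher and 11.1% with lower values in knockouts, so 2 higher and 1 lower of 8 lie near the background. The median log2 change was -0.05 over the members and 0.01 over all genes tested.

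In single embryos 1 of the 8 members, Prmt1, passed 5% by edgeR, where 1.16% of 13830 genes passed with higher and 3.21% with lower values in knockouts (161 and 444 genes; 301 and 423 with upper-quartile scaling). Among the fits without a replicate block, that call was lost by limma-voom and without any 1 of the single embryos other than knockout 3. Groups did not overlap for 3 members, all higher in knockouts, against 12.6% of all genes higher and 15.3% lower. The median log2 change was 0.53 over the members and -0.04 over all genes. The members were proposed with this comparison in view, so the Prmt1 call restates that choice and nothing is read from these counts or from the shares beside them.

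Correlation of log2(CPM + 1) with Prmt1 over all 10 libraries was taken for 7671 genes with a mean of at least 10 CPM. Predicted genes and pseudogenes, recognized by name, had been left out of these. Those that followed Prmt1 most closely were Rbbp7 (Pearson r = 0.969), Polr1e (0.963), Rcl1 (0.961), Acot9 (0.956) and Hdac1 (0.955). Genes with strongly negative r included Dhx57 (-0.961), Myh10 (-0.958), Elmod2 (-0.956) and Wdr82 (-0.955). Rbbp7, which encodes a histone-binding protein found in PRC2 and in deacetylase complexes, had 1481, 757.9 and 1160 CPM in knockout single embryos 1, 3 and 4, against 480.3, 745.6 and 669.4 CPM in the wild-type ones. Among the pools Rbbp7 had 929.0 and 619.7 CPM in knockouts, against 981.4 and 730.7 CPM in controls. As for Prmt1, knockout embryo 1 was the highest library and wild type 1 the lowest, and pool 1 of each genotype lay above pool 2. Hdac1, a histone deacetylase gene, had 238.9, 134.1 and 181.2 CPM in knockout single embryos, against 87.8, 125.5 and 124.5 CPM in wild types. Among the members Wdr77 was the closest (r = 0.925), then Prmt5 (0.702), Carm1 (0.646), Prmt2 (0.641), Prmt7 (0.612), Prmt3 (0.551) and Prmt6 (0.192). These coefficients describe the libraries, which share genotype and set, and carry no test.

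**Figure D4:**
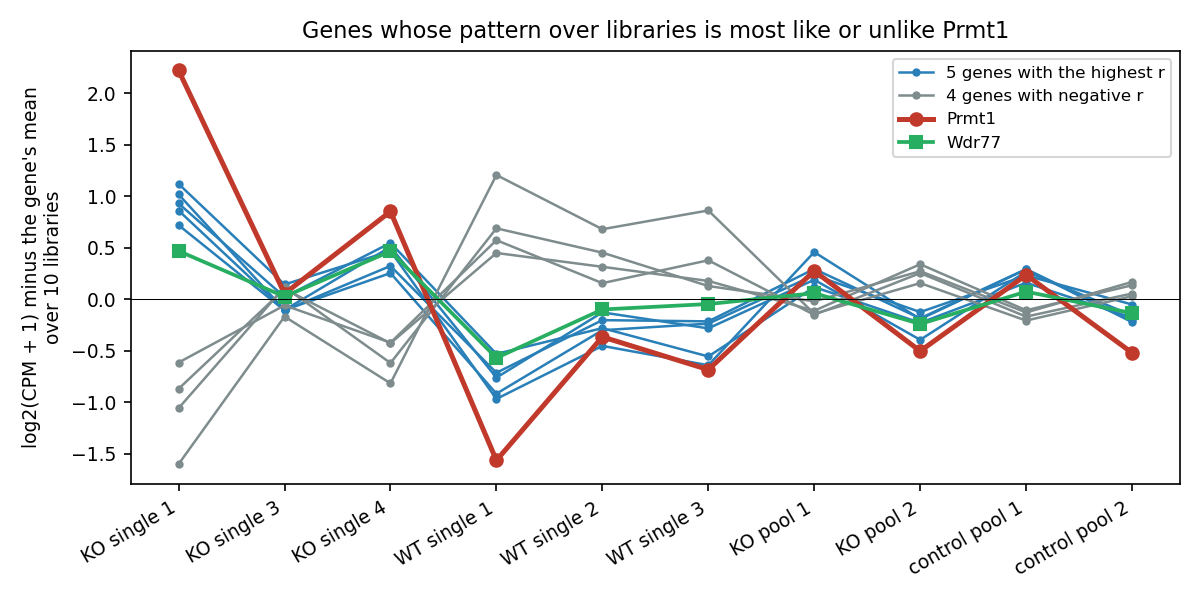
Deviation of log2(CPM + 1) from each gene's mean over the 10 libraries (vertical axis) for Prmt1, Wdr77 and the 5 genes with the highest correlation with Prmt1 and the 4 genes named above with negative r. The libraries run along the horizontal axis with knockouts before their controls. Prmt1 is highest in knockout single embryo 1 (237.1 CPM) and lowest in wild-type single embryo 1 (16.3 CPM).

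Genes around arginine methylation were taken from 8 lists with 130 entries. In the pools 124 of them were tested, 0 passed 5% by edgeR and 1, Btg2, had an unadjusted p under 0.05 (DESeq2 called 1, Btg2, and limma-voom 0). Btg2 is an antiproliferative target of p53 whose product binds and modulates Prmt1. It had 117.8 and 157.4 CPM in knockout pools, against 55.3 and 54.2 CPM in control pools, with no overlap (log2 1.23, SE 0.18, adjusted p = 0.182 by edgeR and 7.13e-06 by DESeq2). It passed in 7 of 13 alternatives, among them each fit with 1 pool left out, with log2 changes of 1.08 to 1.37 over all 13. In single embryos Btg2 had 116.5, 79.3 and 109.1 CPM in knockouts, against 48.4, 129.5 and 17.9 CPM in wild types, where wild type 2 was the highest of all 6. The other Prmt1 partners named by the rule were the related genes Btg4, at 0.84 and 0.29 CPM in knockout pools against 0.14 and 0.17 CPM in control pools (log2 1.81, SE 0.89), and Btg1 (0.17, SE 0.19). The 10 tested genes of this list had a median of 0.10.

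The list around Prmt5 held 20 genes of its adaptors, the Sm proteins and the SMN complex that assembles them. In the pools 19 were tested, 0 passed and the median log2 change was -0.10, from -0.35 to 0.13. Its genes with the smallest p were Lsm11, of the U7 small nuclear ribonucleoprotein (-0.35, SE 0.22), Gemin7, of the SMN complex (-0.35, SE 0.20), and Smn1 itself (-0.32, SE 0.22). In single embryos 0 of 19 passed and the median was 0.35, beside -0.04 for all genes. Gemin7 there had 120.8, 140.2 and 125.0 CPM in knockouts, against 75.5, 106.6 and 81.1 CPM in wild types.

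Substrates of Prmt1 with glycine-arginine-rich stretches did not move together in the pools: 0 of 31 passed, with a median of 0.04. The genes with the smallest p were those of the ribonucleoproteins Hnrnpk (-0.38, SE 0.18) and Hnrnpr (-0.26, SE 0.17) and of the export factor Alyref (-0.26, SE 0.16). In single embryos their median was 0.07 and 1 of 31 passed with a higher level in knockouts, the cold-inducible RNA-binding gene Rbm3 (log2 1.04, SE 0.23). Over all genes tested there, 1.16% passed with higher values in knockouts. Of 19 substrates and partners of Carm1, 0 passed in either set. Their median was 0.09 in the pools and -0.40 in single embryos. In the pools the Mediator gene Med12 had 0.48 (SE 0.24) and the splicing factor gene Sf3b4 -0.46 (SE 0.27). The RNA-binding gene Elavl2 had 0.94 (SE 0.58) there at low levels, 1.16 and 2.05 CPM in knockout pools against 0.42 and 1.14 CPM in control pools. Over 13 alternatives the log2 change of Sf3b4 in the pools ran from -0.91 to -0.11. The value of -0.91 came without knockout pool 1, a fit with a lone knockout library.

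Readers of methylarginine, mostly Tudor-domain genes, had a median of 0.14 in the pools with 0 of 10 passing. Tdrd12, of the piRNA pathway, had 23.6 and 34.3 CPM in knockout pools, against 23.4 and 17.9 CPM in control pools (log2 0.39, SE 0.23). Tdrd5 had a log2 change of 0.50 (SE 0.31) there. Tdrd7 had 0.93 (SE 0.74) at low levels, 1.24 and 0.88 CPM in knockout pools against 0.86 and 0.19 CPM in control pools. In single embryos 1 of 8 readers passed, Tdrd12, where 1.16% of all genes tested passed with higher values in knockouts. It had 47.9, 48.1 and 25.7 CPM in knockout single embryos, against 6.54, 11.1 and 17.3 CPM in wild types (log2 1.84, SE 0.42). The genotypes did not overlap for Tdrd12 or for Tdrd5 in either set, each being higher in knockouts. Over all genes tested, 24.3% did so in the pools and 12.6% in single embryos. The share that did so in both sets was not taken, so nothing is read from their standing in both. Tdrd12 separated in the pools only by 23.6 against 23.4 CPM.

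Of the deiminases, which convert arginine to citrulline, and the reported demethylases, 0 of 8 passed in the pools, with a median of 0.10. Padi2 (1.71, SE 0.93) was under 1 CPM in every pool, Padi4 had 0.35 (SE 0.46), and Padi6, an oocyte-abundant gene, had 23.7 and 21.4 CPM in knockout pools against 20.7 and 17.1 CPM in control pools (0.17, SE 0.21). In single embryos 0 of 7 passed, with a median of -0.09. Genes that supply S-adenosylmethionine and run the methyl cycle had a median of -0.11 in the pools with 0 of 24 passing. Those with the smallest p were the methionine synthase reductase gene Mtrr (-0.37, SE 0.17), the folate carrier gene Slc19a1 (-0.86, SE 0.48) and the amino acid transporter subunit gene Slc3a2 (-0.27, SE 0.17). In single embryos 1 of 23 passed, Slc3a2, lower in knockouts (-1.05, SE 0.21), and the median was 0.12. Over all genes tested there, 3.21% passed with lower values in knockouts, so this count lies near the background.

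Of the arginine methyltransferases that are not among the 8, Prmt8, close in sequence to Prmt1, had 0 counts in each single embryo and at most 6 counts in a pool. Prmt9, of type II, had 33.3, 29.9 and 26.3 CPM in knockout single embryos, against 49.6, 32.7 and 35.9 CPM in wild types, and its sign there (log2 -0.35, SE 0.29) was opposite to that of the 8 members. In the pools Prmt9 had 38.3 and 32.7 CPM in knockouts, against 39.1 and 33.4 CPM in controls (-0.12, SE 0.20). The mitochondrial enzyme gene Ndufaf7 (-0.18, SE 0.22) and Mettl23 (-0.12, SE 0.20) did not pass in the pools either.

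**Figure D5:**
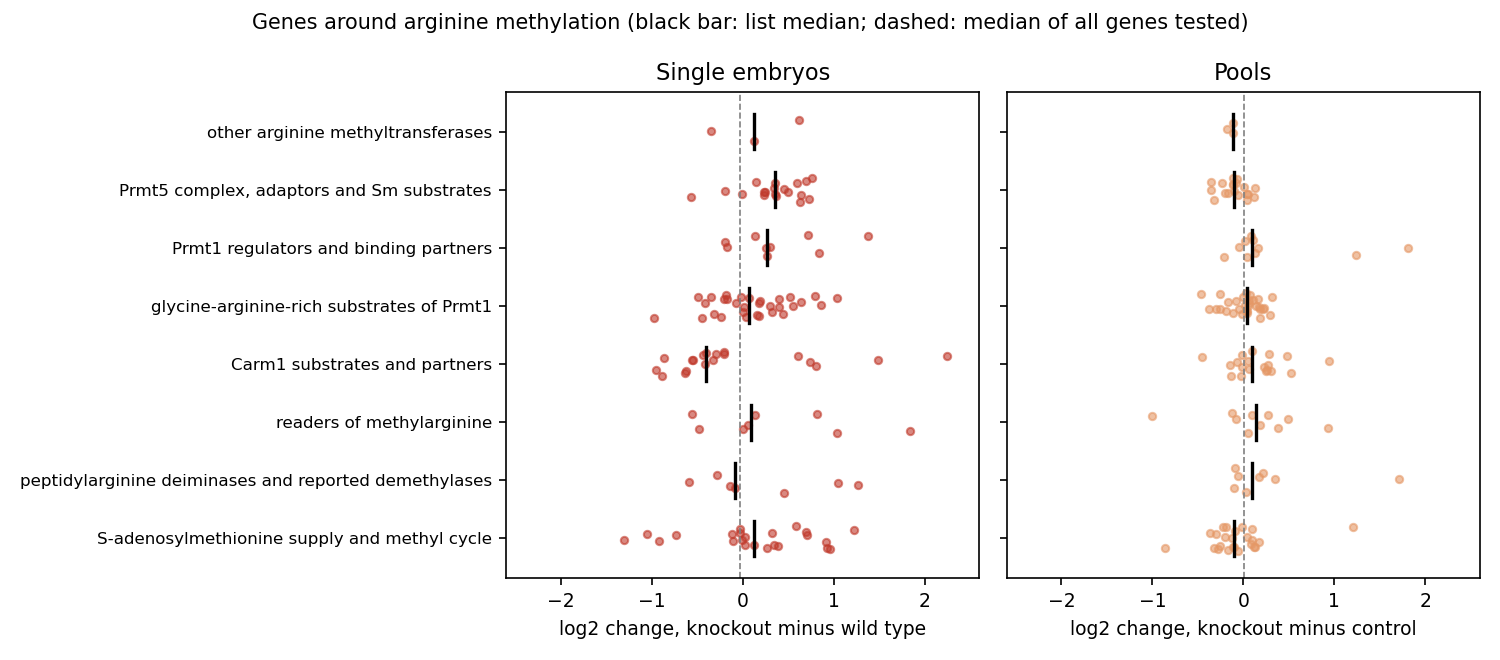
Log2 change of each tested gene of the 8 lists (points, jittered within a row) in single embryos (left, knockout minus wild type) and pools (right, knockout minus control). Black bars are list medians and the dashed line is the median of all genes tested. In the pools the list medians lie between -0.12 and 0.14.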

How the data were processed

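The deposited table holds read counts per gene for 10 libraries, not normalized by the authors. Per the submitters' processing notes, STAR 2.7.6a, RSEM 1.3.1 and fastp 0.21.0 were used with the build mm10; neither which tool counted, nor the annotation, nor the use of strand is stated there. By the labels' protocols, libraries of both sets were SMART-Seq v4 and Nextera XT, read as single ends of 75 bases. Reads had no molecular identifiers, so floors cover counting error only.

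Each set was fitted by itself in R 4.3.3 with edgeR 4.0.16: filterByExpr, TMM (factors 0.925 to 1.08), the quasi-likelihood F test, and two-sided Benjamini-Hochberg adjustment at 5% over all genes tested. SE is the log2 change over the root of F, and CPM uses library totals. Alternatives were other scalings, DESeq2 1.42.0, limma-voom (limma 3.58.1), other filters, all libraries in one fit, the replicate block and leaving out each library. No 2 libraries of a group were near-identical (chi-square per gene 49.4 to 88.4). The labels do not say whether pools were from separate litters, so their p-values may measure technical spread.

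All 8 members matched RefSeq's gene table and 7 its promoter table (not Carm1). Members and lists were chosen with earlier results of these data known. Genes named beside the members are, per list, those with the 3 smallest p in the pools, the 5 most and 5 least like Prmt1 (1 of the least like is not reported here), and Jarid2; Rbm3 was named after its value was seen.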

Additional observations from a re-analysis of the deposited data

Results flagged for a closer look

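Prmt7 was marked because all 3 knockout single embryos (122.2, 106.9 and 172.8 CPM) lay above the wild-type mean of 92.4 CPM while both knockout pools (71.5 and 61.6 CPM) lay below the control mean of 87.2 CPM. The log2 change was 0.59 in single embryos and -0.47 in pools, a gap of 1.07. This difference between the sets was not tested.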

How the results depend on the processing

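In single embryos the 605 genes past 5% became 1945 by DESeq2, 1715 without a filter, 1243 at a mean of at least 10 CPM, 1667 with all 10 libraries, and 1 to 1316 with 1 embryo left out. The 3 list genes became 6 with upper-quartile factors, 19, 16, 10 and 13 in the first 4 of those fits, and 0 to 18 with 1 embryo left out. The 1 member became 0 by limma-voom and 0 to 1 with 1 embryo left out. In pools the 0 genes became 70 by DESeq2, 1 by limma-voom, 170 without a filter and 25 to 379 with 1 pool left out, and the 0 list genes became 1 by DESeq2, 1 without a filter and 1 to 3 with 1 pool left out. The cause was not tested. Fits with 1 pool left out assume that the lone library varies like the other genotype.

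The replicate block was fitted on libraries whose number occurs in both genotypes. With it, single embryos gave 38 genes, 0 members (log2 change of Prmt1 2.33) and 0 list genes. The pools gave 39 genes, 0 members and 1 list gene. Deviations from the group means correlated across genes at 0.315 between same-numbered pools and at -0.014 and -0.085 between same-numbered single embryos. The labels name no shared litter, batch or day, and the pools give only 2 pairs, so the numbers are not taken as pairs in either set, although the pools' deviations went together by number.

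In pools the sign of small changes turned: Prmt1 was 0.001 with upper-quartile factors, 0.033 with library totals alone and 0.011 at a mean of at least 10 CPM; Prmt3 was 0.046 with library totals and 0.014 at 10 CPM; Prmt6 was -0.006 with DESeq2 size factors and -0.006 by DESeq2. With library totals the median of all genes was 0.10, against 0.01 with TMM. With 1 pool left out Prmt1 ran from -0.59 to 0.42, Prmt3 from -0.24 to 0.17, Carm1 from -0.76 to 0.47, Prmt6 from -0.23 to 0.31 and Wdr77 from -0.37 to 0.063. Ndufaf7 ran from -0.51 to 0.086, Prmt9 from -0.31 to 0.056, Mettl23 from -0.24 to 0.014, Btg1 from -0.068 to 0.37 and Slc19a1 from -1.47 to 0.20. In single embryos Carm1 ran from -0.07 to 0.90 with 1 embryo left out. Members other than Prmt1 stayed on the same side of the threshold in all alternatives run.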
